A study of Drosophila melanogaster with 4 samples.

Results

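The protein POF of the fruit fly Drosophila melanogaster binds RNA and is best known for coating chromosome 4. The regions described here are its binding clusters on 5 heterochromatic scaffolds of the genome, 2LHet, 3LHet, 3RHet, XHet and YHet. Members were all clusters listed as significantly enriched on these scaffolds in the list deposited for the whole series, here called the replicate set. They numbered 278 of the 9053 clusters of that list, with 21 on 2LHet, 141 on 3LHet, 98 on 3RHet, 12 on XHet and 6 on YHet. Among the enriched clusters of that list, the choice used position alone. It set no limit on width, score or overlap with the replicates beyond those that made the list. The scaffold 2RHet and unplaced sequence were not analysed here. Regions listed as depleted did not fall on the 5 scaffolds. Positions are those of FlyBase release 5, per the file headers.

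The material was nuclei from sieved heads of mixed adult flies of the wild-type strain Oregon-R, which were raised in population cages. Chromatin immunoprecipitation of formaldehyde-treated chromatin with the POF antibody MO 459 gave 2 ChIP libraries, and 2 further libraries served as their inputs. All groups shared strain, genotype and stage, and the sexes were not stated. Each ChIP replicate had its own list of clusters, 6572 in replicate 1 and 5227 in replicate 2.

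Heterochromatin is the compact, repeat-rich part of the genome around centromeres and on the Y chromosome. It carries the heterochromatin protein HP1a and methylation of histone H3 at lysine 9, and it holds active genes as well as repeats. POF is known for binding transcribed genes of chromosome 4, which is itself rich in HP1a and in repeats, and binding of POF and HP1a there has been described as interdependent. The scaffolds are assembled stretches of such heterochromatin that were assigned to a chromosome but kept apart from the continuous arm sequence. The Y chromosome is carried by males alone, and its few genes are known mainly for roles in male fertility.

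The first comparison asked how much of this heterochromatin POF clusters covered. The scaffolds were covered sparsely, and less than the large arms (X and both arms of chromosomes 2 and 3) in every list. Shares are of the full sequence length. How much of that length reads could be placed on is unknown, and its part in the gap was not tested. Clusters covered 5.36% of the 5993 kb in replicate 1 and 2.53% in replicate 2, a mean of 3.95% ± 2.00 (SD, n = 2). The large arms were covered to 11.6% in replicate 1 and 10.2% in replicate 2, a mean of 10.9% ± 0.996 (SD, n = 2). Every value of the scaffolds lay below every value of the arms. With 2 values against 2, the exact two-sided permutation test gave p = 0.333, which is the smallest value it can give, so the design cannot reach 0.05. Scaffold and arm values of a replicate come from the same library, a pairing that this test does not use and that the ratio within each replicate does.

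The covered share of the scaffolds was 0.462 times that of the large arms in replicate 1 and 0.249 times in replicate 2 (mean 0.356 ± 0.151, SD, n = 2). In the replicate set, 8.40% of the scaffolds and 15.4% of the arms were covered, which is 0.545 times as much. Chromosome 4, the main known target of POF, was covered to 67.6% and 65.4% in replicates 1 and 2. The scaffolds reached 0.0794 and 0.0387 times that share in the same replicates, and every scaffold value again lay below every chromosome 4 value (exact two-sided permutation p = 0.333, the smallest possible). Clusters were also sparser in number, with 24.4 and 8.51 per Mb on the scaffolds in replicates 1 and 2, against 51.7 and 42.2 on the large arms.

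The replicates differed more on the scaffolds than on the large arms or chromosome 4. Replicate 2 had 51 scaffold clusters against 146 in replicate 1, or 34.9% as many, while on the large arms it had 5028 against 6153, or 81.7%. Covered length on the scaffolds in replicate 2 was 47.3% of that in replicate 1, against 87.9% on the large arms and 96.8% on chromosome 4. Read depth is unknown, and whether depth moved with this gap was not tested. With 1 pair of lists, the difference between scaffolds and arms has no replicate of its own.

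The scaffolds were not alike. 2LHet, which is 368.9 kb long, was covered to 7.57% in replicate 1 and 4.22% in replicate 2. 3LHet, the longest at 2555 kb, was covered to 6.52% and 3.14%, and 3RHet, of 2518 kb, to 4.36% and 1.78%. XHet, of 204.1 kb, stood at 5.06% and 5.49%. XHet was thus the exception, with slightly more cover in replicate 2 than in replicate 1.

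YHet, of 347.0 kb, was the least covered scaffold in all 3 lists. It was covered to 1.89% in replicate 1, and replicate 2 listed no cluster there. In order of the mean, 2LHet had 5.90% ± 2.37, XHet 5.27% ± 0.302, 3LHet 4.83% ± 2.39, 3RHet 3.07% ± 1.83 and YHet 0.945% ± 1.34 (SD, n = 2 each). The ranges of the replicate values overlapped for all neighbours in this order, and the YHet value of replicate 1, 1.89%, lay above the 3RHet value of replicate 2, 1.78%. Those ranges include the gap between the replicates, which all scaffolds but XHet had in the same direction. Within each replicate, 2LHet, 3LHet, 3RHet and YHet kept this order, and XHet alone changed place. The replicate set covered 11.3% of 2LHet, 10.8% of XHet, 10.1% of 3LHet, 6.86% of 3RHet and 2.40% of YHet.

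**Figure D1:**
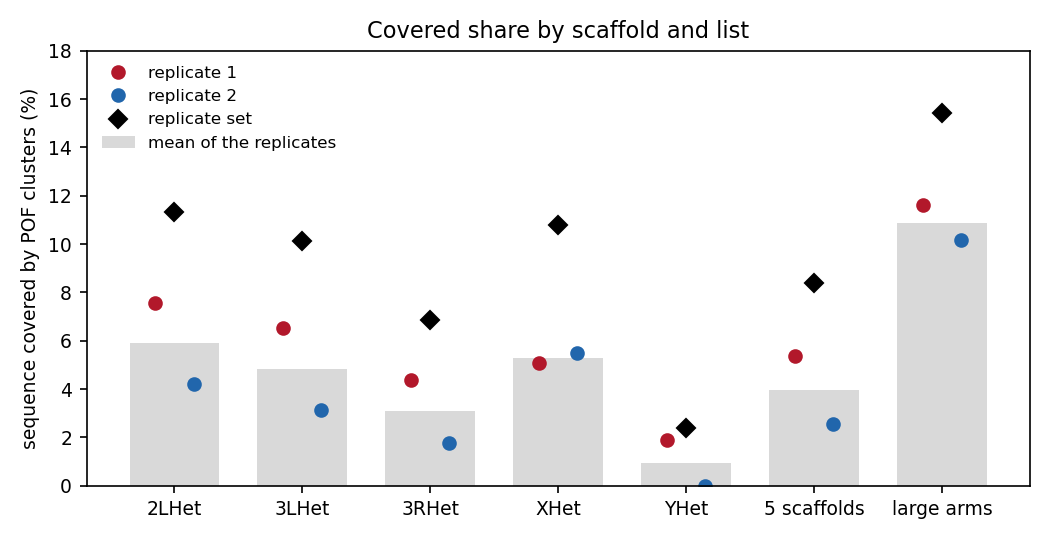
Covered share of each scaffold, of the 5 together and of the large arms (%), in each list. Points are the lists and grey bars the mean of the replicates. Replicate 1 lies above replicate 2 on every scaffold but XHet, and the 5 scaffolds together (5.36% and 2.53%) lie below the large arms (11.6% and 10.2%).

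The second comparison asked which members each replicate had on its own, with at least 1 shared base counted as overlap. Few did in both. Of the 278 members, 35 were overlapped in both replicates (12.6%, exact 95% binomial interval 8.93% to 17.1%), where 47.4% of all replicate-set clusters were. Replicate 1 alone overlapped 75 members (27.0%) and replicate 2 alone 12 (4.32%), against 17.0% and 8.41% of all replicate-set clusters. The remaining 156 were overlapped in neither (56.1%, interval 50.1% to 62.0%), against 27.2% of all replicate-set clusters. These intervals cover counting error only, and neighbouring clusters are not independent. On the large arms 50.2% of the clusters were overlapped in both replicates, and on chromosome 4 it was 59.1%. The remaining sequence of the genome was not compared on its own.

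By scaffold, both replicates overlapped 2 of 21 members on 2LHet, 19 of 141 on 3LHet, 10 of 98 on 3RHet and 4 of 12 on XHet. On YHet it was 0 of 6, with an exact upper limit of 45.9%. The intervals of all 5 scaffolds overlapped, and that of XHet, with 12 members, ran from 9.92% to 65.1%. Members overlapped in 1 replicate only were mostly of replicate 1, with 9 against 1 on 2LHet, 38 against 7 on 3LHet and 26 against 4 on 3RHet. On XHet there were 0 of either kind. Over all replicate-set clusters, replicate 1 also had more of its own, with 1540 against 761.

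**Figure D2:**
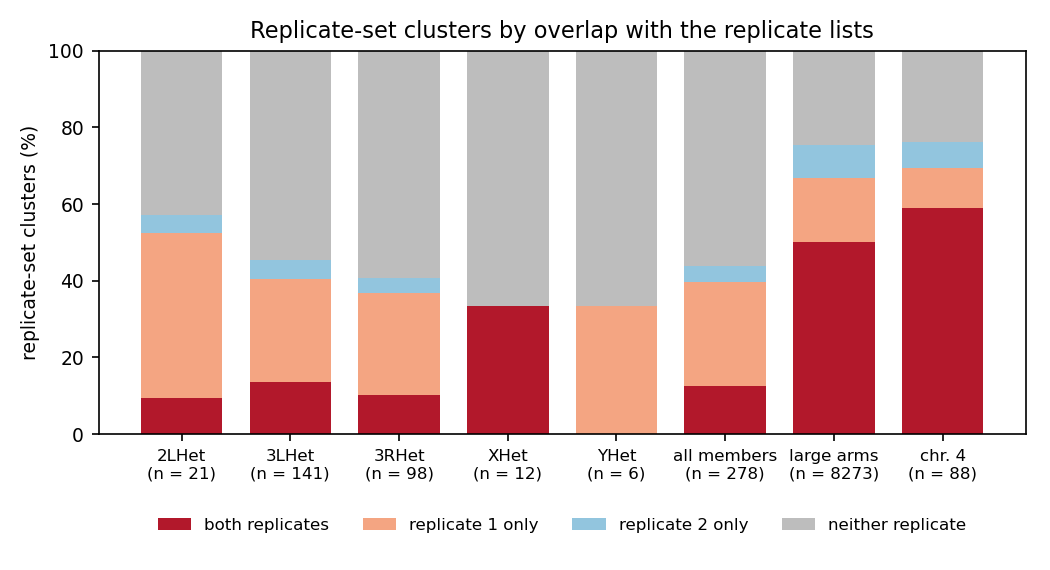
Share of replicate-set clusters (%) that were overlapped by at least 1 base in both replicates, in 1 of them or in neither, for each scaffold, all 278 members, the large arms and chromosome 4. Both replicates overlapped 12.6% of the members, 50.2% of large-arm clusters and 59.1% of chromosome 4 clusters.

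Read from the single lists, the picture depended on the replicate. Of the 146 scaffold clusters of replicate 1, 39 were overlapped by replicate 2 (26.7%), where 67.8% of all replicate 1 clusters were. Of the 51 of replicate 2, 36 were overlapped by replicate 1 (70.6%), where 84.2% of all replicate 2 clusters were. The shorter list was thus largely contained in the longer one. The Jaccard index of covered bases, the shared length over the length covered in either replicate, was 0.329 on the scaffolds, 0.599 on the large arms and 0.897 on chromosome 4. It was 0.720 on XHet, 0.346 on 3LHet, 0.326 on 2LHet, 0.281 on 3RHet and 0 on YHet.

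Not every scaffold cluster of a replicate entered the replicate set. Of the 146 clusters of replicate 1, 35 (24.0%) had no replicate-set cluster over them, against 7.95% of its large-arm clusters. These 35 had a median width of 1500 bases and reached at most 2504. In replicate 2 it was 2 of 51 (3.92%), against 1.07% on the large arms. Those 2 lay at 3RHet: 1487997 to 1489462 and XHet: 113497 to 115145. The way in which the replicate set was built from the replicates is not stated.

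Members found in both replicates were broad and high in score. Their median width was 3418 bases (range 1610 to 13589), against 1099 (1001 to 2541) for those in neither. Scores are the authors' own. In the replicate set, 972 of 9053 scores differed from the commonest score of the list by the base-2 logarithm of a ratio of whole numbers up to 100, within 1e-09, against 20 scores for natural logarithms and 20 for base 10. Scores are therefore read here as log2 values of a ratio, without knowing which ratio, and were used within a list.

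The median score was 1.24 for members in both replicates, 0.518 for those in neither, 0.417 for those in replicate 1 only and 0.440 for those in replicate 2 only. The members in neither replicate thus had a higher median score than those found in 1. The 35 shared members spanned 159.4 kb, 31.6% of the width of all members, though they made up 12.6% of the number. On the large arms the corresponding medians were 0.741 and 2436 bases in both replicates, and 0.405 and 1186 bases in neither. Members in both replicates were therefore broader and higher in score than their counterparts on the arms, by medians and without a test. The 2 classes are unlike slices, since 50.2% of arm clusters were in both replicates. Over all clusters, the median score was 0.486 on the scaffolds and 0.464 on the arms. The median width over all clusters was 1319.5 bases on the scaffolds and 2005 on the arms.

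Overlap in both replicates went with width. Of the 134 members narrower than 1301 bases, the width of the narrowest cluster in either replicate list, 0 were overlapped in both replicates. Of the 92 from that width to under 2 kb it was 4 (4.35%), of the 34 from 2 to under 4 kb it was 16 (47.1%), and of the 18 of at least 4 kb it was 15 (83.3%). On the large arms the same classes gave 0%, 17.1%, 88.2% and 98.1%. In each class from 1301 bases up, the share was lower on the scaffolds than on the arms, and narrow clusters were also more common there. Members narrower than 1301 bases made up 48.2% of all members, against 20.9% on the large arms.

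High scores came in 2 kinds of members. Of the 27 members that scored at least 1.5, a value set after the scores were seen, 11 were at least 2 kb wide and all 11 were overlapped in both replicates. The other 16 were narrower than 2 kb, and 15 of them were overlapped in neither and 1 in replicate 1 only. At a lower limit of 1, the 26 members of at least 2 kb were all in both replicates and the 23 narrower ones included 0 in both. The large arms also had narrow clusters of this kind, but as a small part. There, 24 of the 490 clusters scoring at least 1.5 were narrower than 2 kb, and all 24 were in neither replicate. Broad high scorers were shared on the arms too, with 464 of the 466 of at least 2 kb in both replicates. At the lower limit of 1 it was 1234 of 1238 on the arms, and 0 of the 49 narrower ones. Among all replicate-set clusters other than the members, 585 scored at least 1.5. Of these, 76 were narrower than 2 kb, and 72 of the 76 were in neither replicate. With 24 of the 76 on the large arms, most lay on neither the arms nor the scaffolds of the members. Narrow, high-scoring clusters in neither replicate were thus not particular to these scaffolds.

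The narrow, high-scoring members included the highest score of the 278. It was 3.39, rank 9 of 9053, at 3RHet: 1865619 to 1866627, a region of 1009 bases. On 2LHet the highest-scoring member in neither replicate was 356537 to 357604, with 3.03, and on 3LHet it was 2172679 to 2173695, with 2.45. On YHet it was 134047 to 135097, with 1.89, and on XHet it was 173439 to 174861, with 0.827. None of these 5 regions had a base in either replicate list, and the widest of them measured 1423 bases.

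Equal scores were frequent among such members. Of the 156 members in neither replicate, 94 (60.3%) shared their score to the last digit with some other replicate-set cluster, against 6 of the 35 (17.1%) in both replicates. On the large arms these shares were 52.2% and 8.07%. Scores that differed from the commonest score by the log2 of a ratio of whole numbers up to 100 were held by 30.8% of members in neither and 14.3% of those in both, against 17.04% and 4.58% on the arms. The part of read number in these values was not tested.

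**Figure D3:**
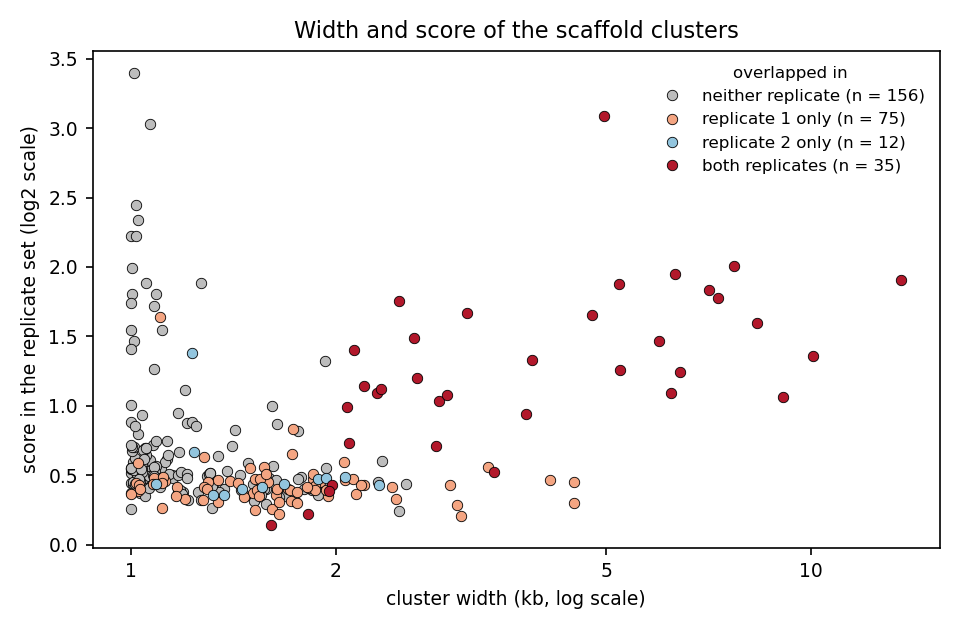
Width (kb, log scale) and score in the replicate set (log2 scale) of each of the 278 members, coloured by the replicates that overlap it. Members of at least 2 kb that score 1.5 or more are all in both replicates, and the narrower ones that score as high are in neither, except 1 in replicate 1 only.

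The shared members were described one by one. The strongest was on 3LHet, at 1394478 to 1399441, and measured 4964 bases. Its score of 3.08 ranked 26 of 9053 in the replicate set, and its highest score was 3.12 in replicate 1 (rank 9 of 6572) and 3.43 in replicate 2 (rank 12 of 5227). It was the one scaffold site among the 100 highest scores of all 3 lists. Clusters covered 77.2% of it in replicate 1 and 87.8% in replicate 2, a mean of 82.5% ± 7.46 (SD, n = 2).

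The widest member was also on 3LHet, at 597901 to 611489, and measured 13.6 kb. Its score was 1.91, with 1.93 in replicate 1 and 2.26 in replicate 2, and it was covered to 92.1% and 80.0% in the same order. The next on 3LHet by score were 455168 to 461483 (1.95), 2406225 to 2411443 (1.88) and 2189068 to 2196162 (1.83). Their highest scores were 1.76 and 2.17, 1.83 and 2.34, and 1.98 and 2.12 in replicates 1 and 2. All 3 were 5.22 to 7.10 kb wide, so the leading 3LHet sites were several kilobases long.

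On 2LHet 2 members were found in both replicates, and both were wide. The region 30715 to 38432 scored 2.01, with 2.14 in replicate 1 and 2.19 in replicate 2, and was covered to 83.2% in replicate 1 and 92.5% in replicate 2. The region 166380 to 174705, the widest of 2LHet at 8.33 kb, scored 1.60, with 1.63 and 1.88, and was covered to 64.7% and 83.3%. Together they held 38.4% of the member width on that scaffold.

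On 3RHet the top 5 of the shared members were led by 1821370 to 1826141, with a score of 1.66. It was followed by 1704748 to 1710720 (1.47), 2348341 to 2350468 (1.40), 1804709 to 1814785 (1.36) and 1933487 to 1936125 (1.20). In replicates 1 and 2 their highest scores were 1.76 and 2.05, 1.53 and 1.56, 1.31 and 1.51, 1.46 and 1.93, and 0.874 and 1.43. The constant of each list is unknown, so these scores give no direction between the replicates. Their best ranks, of 6572 and 5227, were 271 and 294, 441 and 651, 697 and 701, 502 and 361, and 1756 and 795. By rank the direction was thus mixed. The region at 1804709 was the widest of 3RHet, with 10.1 kb, and was covered to 69.0% in replicate 1 and 78.9% in replicate 2. The best covered was 2348341 to 2350468, with 98.2% and 99.5%. No shared member of 3RHet scored as high as the leading 5 of 3LHet.

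On XHet the 4 shared members lay within 29.8 kb. They were 55982 to 58789, 60360 to 62315, 74249 to 77372 and 81980 to 85790, with scores of 0.709, 0.386, 1.67 and 0.945. The strongest, at 74249, had 1.38 in replicate 1 and 1.94 in replicate 2, and was covered to 97.3% and 93.3%. These 4 were all the clusters that replicate 1 listed on XHet.

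On YHet no member was shared. The widest, 224722 to 226782, scored 0.596 and was covered to 98.5% by a replicate 1 cluster of score 1.12. The 2 members overlapped in replicate 1 had scores of 0.635 and 0.596, and the other 4 were in neither replicate. Replicate 1 listed 2 more clusters on YHet that had no replicate-set cluster over them.

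Across the 35 shared members the highest scores of the replicates rose together, with r = 0.832 (Pearson) and rho = 0.789 (Spearman). This is a correlation across regions, which are not independent replicates and share their libraries, and is given as a description. Scores in replicate 2 were higher for 27 members and lower for 8, but the constant of each list is unknown. The largest gap was at 3LHet: 680615 to 683225, with 2.36 in replicate 1 (rank 66 of 6572) and 1.19 in replicate 2 (rank 1218 of 5227). The regions were covered to a median of 86.5% in replicate 1 and 83.7% in replicate 2, and the least covered stood at 51.6% and 48.8%.

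**Figure D4:**
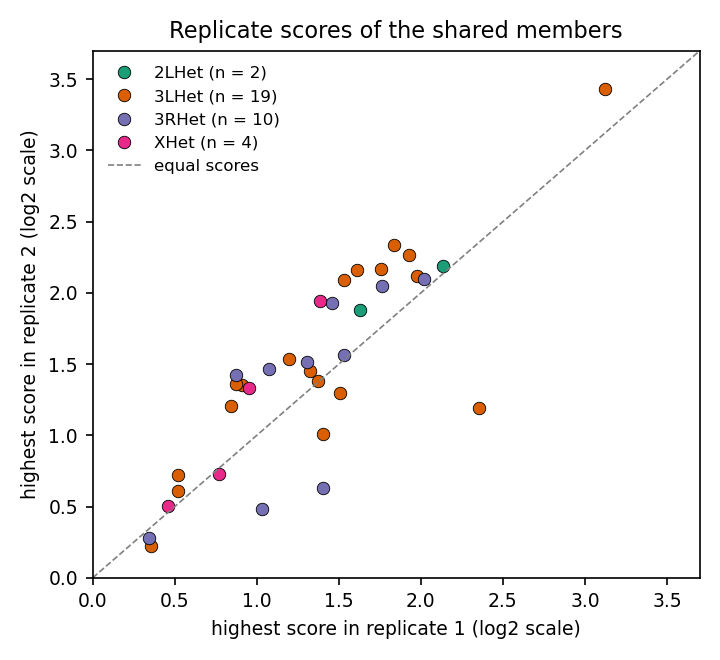
Highest score under each of the 35 shared members in replicate 1 and in replicate 2 (log2 scale), coloured by scaffold, with a dashed line where both would be equal. The point at the top right is the 3LHet member with 3.12 and 3.43, and the point far below the line is the one with 2.36 and 1.19.

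For each replicate, the highest-scoring of the members that it alone overlapped is given here. The 3LHet member 2381989 to 2383092, 1104 bases wide with a score of 1.64, lay under a replicate 1 cluster of score 2.83 that ranked 20 of 6572. Replicate 2 had no cluster there. The 3RHet member 66345 to 67576 scored 1.38 and was overlapped in replicate 2 only, by a cluster of score 1.78 that ranked 465 of 5227. Both members were narrower than 1301 bases and were named after their values were seen. Replicate 1 had other unmatched clusters with scores above 1, such as 2LHet: 51100 to 52949, with 1.44 (rank 524 of 6572).

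Scaffold clusters were found among the highest scores of each list. In the replicate set they took 24 of the 500 highest scores, where their share of the list would give 15.4, and 13 of these 24 were in neither replicate. In replicate 1 they took 15, where the share would give 11.1, and in replicate 2 they took 14, where it would give 4.88. The 1000 highest held 39 in the replicate set, 25 in replicate 1 and 24 in replicate 2. There the share would give 30.7, 22.2 and 9.76, so the replicate 1 count was near it. Among the 100 highest there were 3 in the replicate set, 3 in replicate 1 and 1 in replicate 2. The share would give 3.07, 2.22 and 0.976, so these counts were near it. These are counts without a test.

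Broad members were not always shared. Of the 52 members of at least 2 kb, 31 were in both replicates. On the large arms it was 88.2% of clusters from 2 to under 4 kb and 98.1% of those of at least 4 kb. Among the 18 members of at least 4 kb, 3 were overlapped in replicate 1 only, at 3LHet: 627996 to 632137, 3RHet: 1888370 to 1892851 and 3RHet: 1943151 to 1947634. Their scores were low, at 0.465, 0.302 and 0.449, though they measured 4142, 4482 and 4484 bases. These 3 were named after their values were seen.

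Shared members stood in groups along the long scaffolds. On 3RHet the 10 of them lay between 1704748 and 2381370, a stretch of 676.6 kb. The 1705 kb before it, 67.7% of the scaffold, held 44 members, of which 38 were in neither replicate and 0 in both. Clusters covered 1.504% of that first stretch in replicate 1 and 0.171% in replicate 2, against 10.7% and 6.20% of the stretch with the shared members. The cover of that second stretch was thus near the arm values in replicate 1 and below them in replicate 2. Because the stretches were drawn around the shared members, these values are a description and were not tested.

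On 3LHet, shared members no more than 250 kb apart, a limit set after the positions were seen, formed 3 groups. The first ran from 206281 to 740090 with 13 shared members among 36, and was covered to 11.9% in replicate 1 and 9.41% in replicate 2. The second, from 1394478 to 1572515, had 2 among 10 and stood at 5.02% and 3.93%. The third, from 2189068 to 2411443, had 4 among 19 and stood at 13.6% and 9.72%. Between them, 740091 to 1394477 had 34 members, 14 clusters in replicate 1 and 0 in replicate 2.

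Most of the difference between the replicates on 3LHet lay outside these groups. Because the groups were drawn around members found in both replicates, this follows in part from how they were drawn. It is a description and was not tested. The stretch from 1572516 to 2189067 was covered to 4.37% in replicate 1 and 0.226% in replicate 2. The first 206.3 kb of 3LHet had 8 members and no cluster in either replicate. On 2LHet the 16 members after the second shared one were in at most 1 replicate. On XHet all 7 members outside the shared group's ends were in neither replicate.

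The most covered windows of 50 kb in the replicate set lay within the groups or, for 1 of them, across a group's end. On 3RHet they were 1800001 to 1850000, 1900001 to 1950000 and 1850001 to 1900000, with 51.1%, 45.5% and 28.2%. In replicate 1 the same windows had 30.1%, 28.4% and 20.7%, and in replicate 2 they had 26.5%, 16.3% and 5.49%. On 3LHet the windows were 600001 to 650000, 2200001 to 2250000 and 700001 to 750000, with 35.4%, 26.0% and 23.7%. In the replicates they stood at 35.2% and 19.2%, 12.9% and 12.1%, and 16.1% and 16.1%. The last of these windows held 4 shared members among 5, and its cover was equal in both replicates to the printed digits.

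In windows of 250 kb, the fullest was 3RHet: 1750001 to 2000000, with 30 members, 5 of them shared. It was covered to 20.8% in replicate 1 and 10.9% in replicate 2, and to 31.2% in the replicate set, a share that 8 of 474 arm windows reached. The next was 3LHet: 500001 to 750000, with 19 members, 9 of them shared, at 16.7% and 11.8%. These were 2 of 22 complete scaffold windows, and 2 windows lay above the arm median in each list.

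Windows of 50 kb as full as the first of 3RHet were rare on the arms too. Of 2378 complete windows of the large arms, 19 (0.799%) were covered at least as much in the replicate set as the fullest scaffold window. In replicates 1 and 2 the fullest scaffold windows, at 35.2% and 26.5%, were reached by 69 (2.90%) and 177 (7.44%). The typical scaffold window was emptier than the typical arm window, counting every base of a window whether or not reads could be placed there. The median of the 118 complete scaffold windows was 3.08% in replicate 1 and 0% in replicate 2, against 9.24% and 7.98% on the arms. In replicate 2, 85 of the 118 (72.0%) held no cluster, against 25.3% of arm windows, and in replicate 1 it was 40 (33.9%) against 16.7%.

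**Figure D5:**
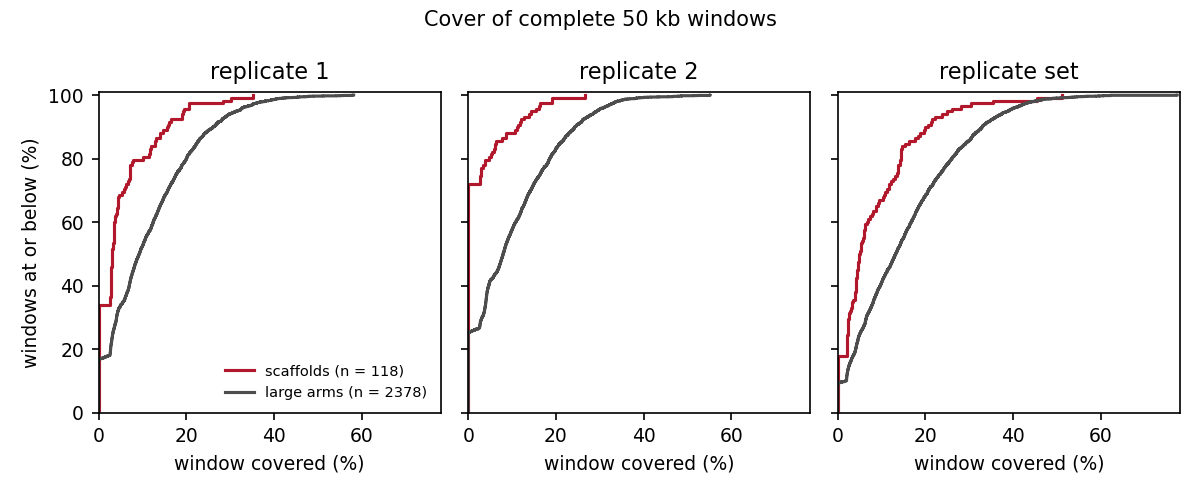
Share of complete 50 kb windows (%) that are covered to the value on the horizontal axis (%) or less, in each list, for the 118 scaffold windows and the 2378 large-arm windows. The scaffold curve starts at 33.9% empty windows in replicate 1 and 72.0% in replicate 2, against 16.7% and 25.3% on the arms.

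The ends of the arms nearest the centromere offer a neighbouring measure. On 3L the last 1 Mb was covered to 8.78% in replicate 1 and 2.73% in replicate 2, against 11.3% and 9.31% for the whole arm, and 5 of its 62 replicate-set clusters (8.06%) were in both replicates. The corresponding values of 3LHet were 6.52%, 3.14% and 13.5%. On 3R the first 1 Mb was covered to 12.0% and 10.8%, with 33 of 80 clusters (41.2%) in both, unlike 3RHet at 4.36%, 1.78% and 10.2%.

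On 2L the last 1 Mb had 14.7% and 8.79%, with 23 of 98 clusters (23.5%) in both, where 2LHet had 7.57% and 4.22% with 9.52%. On X it had 4.98% and 4.64%, with 15 of 35 (42.9%) in both, where XHet had 5.06% and 5.49% with 33.3%. 3RHet lay below the start of 3R, and 2LHet below the end of 2L, in both replicates, while XHet lay slightly above the end of X in both. These are single stretches, and the differences were not tested.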

How the data were processed

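Clusters came from 3 lists deposited by the authors, 1 for each ChIP replicate and 1 for the series; input libraries have no list here and were not used. Reads were aligned with Bowtie 0.12.7, per the submitters' processing notes, to FlyBase release 5, per the file headers. No source used here names the cluster caller, its thresholds or any read filter. Each score is the authors' deposited value for a cluster. Starts and ends are the other deposited values used, per the file headers. Depth per library is unknown. The labels do not say whether replicates came from separate cultures, so their spread may be technical.

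Covered share is cluster length over sequence length from the file headers, and overlap means at least 1 base. Intervals are exact binomial. The rule for named regions took, per scaffold, the 5 shared members with the highest score, the widest member and the highest-scoring member in neither replicate, and the 3 fullest 50 kb windows of 3LHet and 3RHet. Score limits, groups along scaffolds, rank counts and arm ends were added after the data were seen. Members, lists and tests were chosen with earlier results of these data known. The reference gene table follows release 6, so no gene and no sequence is given. Alternatives varied the list, score, width, merging, overlap and scaffolds. Python 3.11.15, numpy 2.4.6, pandas 2.3.3, scipy 1.17.1 and matplotlib 3.10.9 were used, and interval code was tested on simulated data.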

Additional observations from a re-analysis of the deposited data

How the results depend on the processing

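The scaffolds were covered less than the large arms in all 9 alternatives, at 0.239 to 0.545 times the arm share, and 8 of the 9 moved that ratio, and the covered share itself, by less than the spread of the replicates. The exception was the replicate set in place of the replicates, with 8.40% covered and a ratio of 0.545. Leaving out each replicate gave 2.53% to 5.36% covered and ratios of 0.249 to 0.462. With 2 replicates, leaving 1 out always moves the mean by less than their SD, so these alternatives could not have exceeded the spread. Only sequence covered in both replicates, an alternative chosen after seeing the data, gave 1.95% and 0.239. That covered share lay close to the limit of the spread. The share of members in both replicates was 12.1% to 14.4% in 4 of 6 alternatives. It was 24.3% among members at least as wide as the narrowest replicate cluster, and 19.9% among members scoring above the median of the list. On the large arms the same width and score filters gave 63.5% and 81.6%, against 50.2% without a filter. The difference of median scores between members in both replicates and in neither, 0.726, was 0.735 with at least 50% of the member covered, 0.806 with the width filter, 0.733 without YHet and 0.738 on 3LHet and 3RHet only. The difference of median widths, 2319 bases, was 2172, 1828, 2319 and 2322 bases in the same order. The cause of these shifts was not tested. No paired analysis was possible because ChIP and input libraries, which share the replicate numbers, could not be compared without values of the inputs; scaffolds and arms are paired within each library by the ratios above. With 2 replicates and unknown depth, neighbours in the order of scaffolds by cover overlapped in the range of their replicate values. Within each replicate, however, 2LHet, 3LHet, 3RHet and YHet kept the same order.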
